A study of Mus musculus with 46 samples.

Results

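The coinhibitory receptors that T cells carry beside PD-1 were followed through MC-38 tumors in which PD-1 was blocked with an antibody or its gene was targeted. They were Ctla4, Lag3, Tigit, Cd96, Btla, Cd160, Havcr2 (TIM-3), Entpd1 (CD39) and Vsir (VISTA), 9 of the 48795 genes in the expression table. The rule, checkpoint receptors other than PD-1, used none of their values, but the list was made with earlier results of these data known. Each receptor was read in all 46 samples, as its own level and relative to Cd3e, the CD3 epsilon chain of the T-cell receptor complex. Following the second dose of PD-1 Ab 7 of the 9 receptors were called higher than under isotype control, as were 5.03% of all genes tested. In tumors labelled PD-1cKO 5 of the 9 were called higher than in WT, against 4.2% of all genes. Once the runs of sample identifiers entered the fit as a covariate, 0 of the 9 receptors and 0 of all 15075 genes were called. Relative to Cd3e none of the receptors was called higher in either model. Of all genes 4 of 15062 were after the second dose and 0 of 15075 in the deletion study. The outcome changed with the denominator.

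MC-38 is a mouse colon carcinoma line, here grown under the skin of female C57BL/6NTac mice aged 8 to 10 weeks at implant. In the antibody study, wild-type mice received 5 mg/kg of the PD-1 antibody muDX400 or an isotype control every 4 days from randomization on day 7. Tumors were taken on day 11 after the first dose or on day 15 after the second dose (5 per group), beside 3 tumors labelled baseline and 3 samples of cultured MC-38 cells. Neither the day nor any treatment of the baseline tumors was given in the sources used here. In the deletion study, 10 PD-1cKO mice (ROSA26creERT2, Pdcd1 fl/fl) and 10 littermate controls labelled WT all received tamoxifen at 40 mg/kg on 5 consecutive days, and their tumors are labelled day 28, whereas the methods text gives day 22 after implant for their collection. The Cre in these mice is driven from a ubiquitous locus and is not limited to T cells. Whether the littermates carried Cre or floxed alleles was not given in the sources used here.

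Coinhibitory receptors limit T-cell activation by competing with costimulatory receptors for shared ligands or by recruiting phosphatases and other inhibitory signals. Most are induced by antigen-receptor signalling, so activated and exhausted T cells carry several of them together. Ctla4, Lag3, Tigit, Cd96, Btla and Cd160 are known mainly from lymphocytes, whereas Havcr2, Entpd1 and Vsir are also abundant on macrophages, dendritic cells or other myeloid cells. In RNA from whole tumor, a change in the number of cells of a type and a change in RNA per cell cannot be told apart.

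The sequences upstream of Ctla4, Tigit, Cd96 and Havcr2 are shown as examples. The first 3 were called higher in both models, as were Lag3 and Vsir. Havcr2, like Entpd1, was called in the antibody model alone, but neither was called in the test between the models. RefSeq held the start sites of 8 of the 9 receptors, Lag3 being the exception. The 250 bases before each start were searched on both strands for short letter patterns of 4 factor families active in T cells. These were TGANTCA for AP-1, with N standing for any base, GGAAAA for NFAT, TGTGGT for RUNX and GGAAGT for ETS. None of the matches overlap in the sequences shown. Capitals mark the matches, 5′ to 3′ on the strand of the gene in GRCm38.p6.
Ctla4 (chr1:60908775-60909024, plus strand): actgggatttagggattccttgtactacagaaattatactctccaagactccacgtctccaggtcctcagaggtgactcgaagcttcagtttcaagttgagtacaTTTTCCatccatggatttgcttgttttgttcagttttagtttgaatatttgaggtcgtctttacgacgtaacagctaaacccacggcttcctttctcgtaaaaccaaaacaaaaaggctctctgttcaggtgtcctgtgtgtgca
Tigit (chr16:43664185-43664434, minus strand): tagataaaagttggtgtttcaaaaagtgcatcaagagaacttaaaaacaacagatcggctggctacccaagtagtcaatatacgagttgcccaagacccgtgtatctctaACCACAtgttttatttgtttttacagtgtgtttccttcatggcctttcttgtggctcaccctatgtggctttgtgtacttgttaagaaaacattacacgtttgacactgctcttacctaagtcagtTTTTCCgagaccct
Cd96 (chr16:46120249-46120498, minus strand): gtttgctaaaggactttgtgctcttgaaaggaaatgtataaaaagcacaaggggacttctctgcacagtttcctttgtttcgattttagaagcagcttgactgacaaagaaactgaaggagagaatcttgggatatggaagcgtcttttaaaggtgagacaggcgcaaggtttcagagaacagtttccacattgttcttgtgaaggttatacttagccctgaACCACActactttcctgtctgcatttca
Havcr2 (chr11:46454681-46454930, plus strand): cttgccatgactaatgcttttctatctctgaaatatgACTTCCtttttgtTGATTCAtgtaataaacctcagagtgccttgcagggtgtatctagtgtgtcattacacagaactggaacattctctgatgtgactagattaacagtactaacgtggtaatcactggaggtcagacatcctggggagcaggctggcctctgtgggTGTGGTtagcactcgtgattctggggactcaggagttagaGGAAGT
The RUNX letters stood upstream of Tigit, Cd96, Btla, Cd160 and Havcr2, and in 14% of 32851 promoters of the same length. The AP-1 letters, with their middle base left open, stood in Havcr2 but in no other receptor matched (6.75% of promoters). The middle base there was T. The NFAT letters stood in Ctla4, Tigit and a second start site of Entpd1 (20.4%). The ETS letters stood in Btla, Cd160, Havcr2 and Vsir (19.7%). A match of letters describes the sequence and does not show that a factor binds there.

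Expression was given as FPKM, a count of fragments per length of transcript and per total mapped in that library, so levels can be compared between genes per length, but the depth of each library was not given in the sources used here. One isotype control tumor after the first dose, replicate 1, stood apart, with 54.6% of its summed FPKM in mitochondrial genes against 0.17% to 7.65% over all other samples. As a check of the labels, Pdcd1 was 5.05 to 19.95 FPKM in the tumors labelled PD-1cKO and 1.71 to 7.02 FPKM in WT. The gene-level value also counts the exons outside the deleted part, so it does not check the deletion, and the groups are named here by their labels. The T-cell markers Cd2, Cd247, Cd3d, Cd3e, Cd3g and Cd5 were above 0 in tumors of every group, whereas 4 of the 6 were at 0 in all cultured cell samples. All 6 together still summed to 6.80 to 7.34 FPKM in the cultures.

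Vsir and Entpd1 were the most abundant of the receptors in every tumor group and Btla, Cd160 and Cd96 the least. In baseline tumors the mean level was 10.8 ± 3.5 FPKM for Vsir, 9.19 ± 3.7 for Entpd1, 7.03 ± 2.7 for Lag3 and 5.30 ± 2.5 for Havcr2 (SD, n = 3). Tigit stood at 1.23 ± 0.35 FPKM, Ctla4 at 1.05 ± 0.63, Cd160 at 0.346 ± 0.19, Btla at 0.275 ± 0.19 and Cd96 at 0.225 ± 0.18 (SD, n = 3). The summed level of the 9 receptors had a median of 42.1 FPKM at baseline, 42.8 and 36.0 under isotype control after the first and the second dose, 71.6 and 151 under PD-1 Ab, 54.6 in WT and 105.8 in tumors labelled PD-1cKO. When the 8 groups were ordered by mean level, the ranges of neighbouring tumor groups overlapped for each receptor, so the order is one of means only.

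Cultured MC-38 cells held little of these receptors. Their summed level was 0.677 to 0.733 FPKM, with Ctla4 and Cd96, like Cd3e, listed at 0 in all 3 samples. Set against cultured cells, isotype control tumors of the second dose had 6 of 6 tested receptors higher (limma adjusted p at or under 3.3e-05). So were 14.2% of all 15199 genes, a share that includes genes expressed in the cultures. The tested receptors reached the 0.5 FPKM minimum in the tumors alone. The filter thus fixed their direction, and their count tests nothing. Lag3 was 3.13, 4.24, 7.25, 6.13 and 6.69 FPKM in these tumors and 0.253, 0.235 and 0.176 FPKM in the cultures. Cd96, Btla and Cd160 were under the 0.5 FPKM minimum in both groups, and Tigit and Cd160 were above 0 in every culture, at 0.039 to 0.0751 and 0.0957 to 0.183 FPKM.

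**Figure D1:**
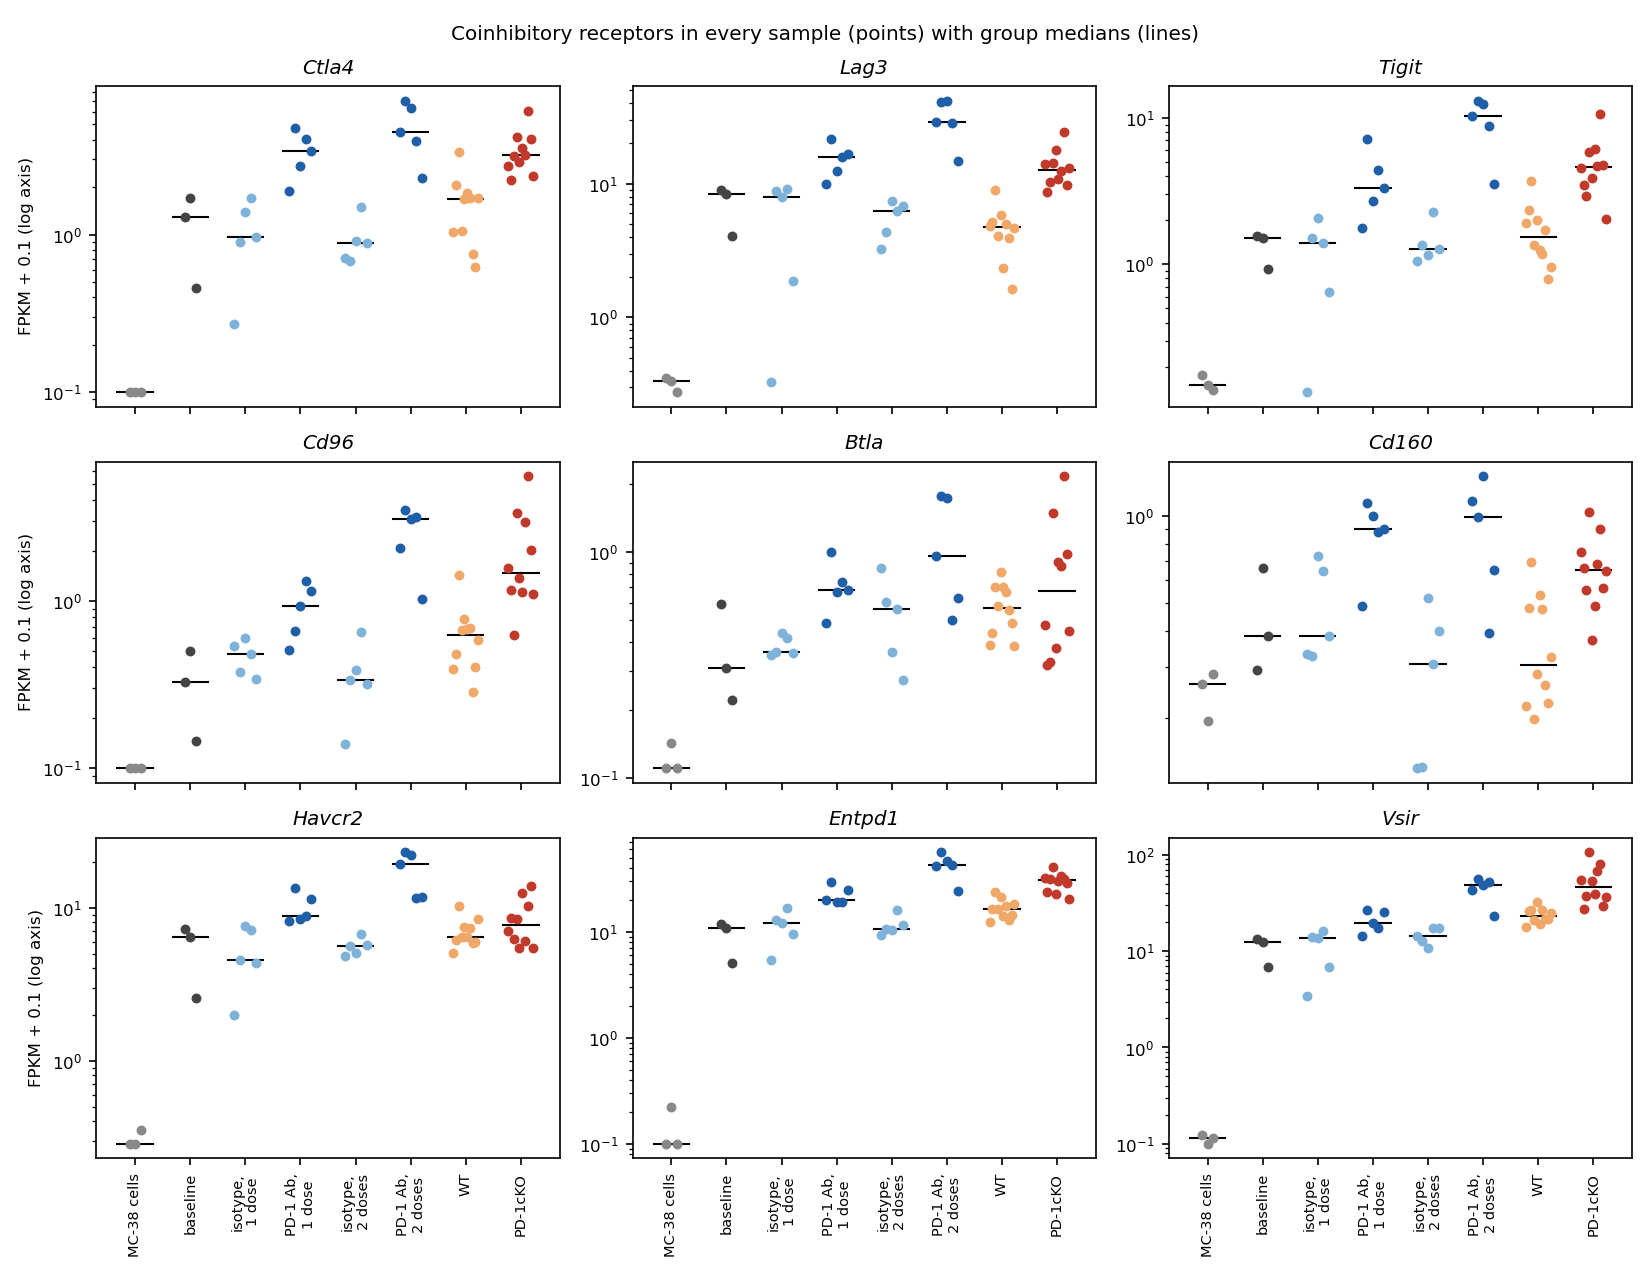
FPKM + 0.1, on a log axis, of the receptors in each sample by group, 1 point per sample and a line at each group's median. After the second dose the 5 PD-1 Ab tumors lie above all 5 isotype control tumors for 7 receptors, as for 9.23% of all genes tested, whereas the ranges overlap for Btla and Cd160.

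The antibody comparison asks how receptor levels moved when PD-1 was blocked. A receptor was called where limma's adjusted p over all tested genes was under 0.01 and the difference at least 2-fold on the log2(FPKM + 0.1) scale, which understates the change of low genes. After the second dose 7 of 9 receptors were called higher and none lower, against 5.03% of the 15062 genes tested, and the median log2 difference was 1.85 against -0.04 over all genes. The 5 treated tumors lay above all 5 controls for those same 7 receptors, and for 9.23% of the genes tested. After the first dose 0 of 9 were called, and 0% of 14556 genes (0 called, 895 at an unadjusted p under 0.05). All 9 values were then above 0, each at an unadjusted p under 0.05, with a median of 1.09 against 0.26 over all genes. For 5 of the 9 the treated tumors all lay above the controls, as for 3.59% of the genes tested. Median-of-ratios scaling brought that all-gene median to 0.01 and kept all 9 values above 0, between 0.64 and 1.98. Of the isotype control tumors 3 came from a run of sample identifiers that held no treated tumor. With the runs as a covariate the 9 values ran from 0.76 for Cd160 to 1.87 for Tigit, each at a limma adjusted p of 1.

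Ctla4 encodes the receptor that competes with CD28 for CD80 and CD86. After the second dose it was 4.36, 6.98, 6.21, 3.81 and 2.18 FPKM under PD-1 Ab and 0.606, 0.576, 0.808, 1.39 and 0.788 FPKM under isotype control. The groups did not overlap, and the log2 difference was 2.32 (SE 0.32, limma adjusted p 0.00115). At the first dose Ctla4 was 1.80, 4.66, 2.60, 3.96 and 3.30 FPKM against 0.169, 0.793, 1.29, 1.61 and 0.867 FPKM. Again the groups did not overlap, at a log2 difference of 1.85 (SE 0.48, limma adjusted p 0.287).

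Lag3 encodes a receptor for MHC class II. It was 28.8, 40.6, 41.7, 28.3 and 14.6 FPKM under PD-1 Ab after the second dose and 3.13, 4.24, 7.25, 6.13 and 6.69 FPKM under isotype control. The log2 difference was 2.44 (SE 0.30, limma adjusted p 0.000885) and the groups did not overlap. At the first dose the values were 9.87, 21.3, 12.3, 15.6 and 16.6 FPKM against 0.229, 8.77, 7.79, 9.05 and 1.78 FPKM, a log2 difference of 2.15 (SE 0.80, limma adjusted p 0.661). The lowest control was the tumor with the high mitochondrial share, and without it the difference was 1.32 (limma adjusted p 0.161).

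Tigit and Cd96 encode receptors of the nectin family ligands, which they share with the costimulatory receptor CD226. Tigit was 10.2, 13.0, 12.3, 8.71 and 3.44 FPKM under PD-1 Ab after the second dose and 0.955, 1.25, 1.05, 2.18 and 1.17 FPKM under isotype control, a log2 difference of 2.69 (SE 0.34, limma adjusted p 0.000969). Cd96 was 1.97, 3.41, 3.01, 3.07 and 0.920 FPKM against 0.0383, 0.235, 0.286, 0.548 and 0.22 FPKM. Its log2 difference was 2.85 (SE 0.44, limma adjusted p 0.00181), and neither gene's groups overlapped. As a low gene Cd96 depended on the pseudocount, and with 1 FPKM its difference was 1.41, below those of Lag3 (2.25) and Tigit (2.10). After the first dose Tigit differed by 2.08 (SE 0.68, limma adjusted p 0.505), or 1.42 without the tumor that stood apart. Cd96 differed by 0.92 then, with 4 of 5 treated tumors above every control. The step from the first to the second dose in the PD-1 Ab effect on Cd96 was 1.93 (SE 0.58, limma adjusted p 0.623).

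Btla and Cd160 both bind HVEM, the product of Tnfrsf14. Btla was 0.860, 1.68, 1.65, 0.403 and 0.528 FPKM under PD-1 Ab after the second dose and 0.75, 0.503, 0.264, 0.463 and 0.173 FPKM under isotype control. The groups overlapped and the log2 difference of 1.01 was not called (SE 0.44, limma adjusted p 0.112). Cd160 was 1.03, 0.895, 1.27, 0.294 and 0.549 FPKM against 0.034, 0.0348, 0.422, 0.207 and 0.300 FPKM. Its difference of 1.68 was not called (SE 0.50, limma adjusted p 0.0303), but was called where all tumor groups shared 1 fit (limma adjusted p 0.0028). Cd160 also shares 68 exon bases with Pdzk1 on the opposite strand.

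Havcr2 encodes TIM-3, Entpd1 the ectonucleotidase CD39, which degrades extracellular ATP, and Vsir the receptor VISTA. Havcr2 was 19.2, 22.9, 22.1, 11.5 and 11.7 FPKM under PD-1 Ab after the second dose and 4.70, 5.51, 4.93, 6.60 and 5.60 FPKM under isotype control, a log2 difference of 1.60 (SE 0.21, limma adjusted p 0.00101). Entpd1 was 41.8, 56.0, 46.0, 42.5 and 24.1 FPKM against 9.20, 10.4, 10.3, 15.8 and 11.3 FPKM, a difference of 1.85 (SE 0.21, limma adjusted p 0.000837). Vsir was 42.8, 56.4, 48.6, 52.0 and 23.3 FPKM against 14.4, 12.7, 10.7, 17.2 and 17.4 FPKM, a difference of 1.58 (SE 0.23, limma adjusted p 0.00131). All 3 rose without overlap. Their first-dose log2 differences were 1.09, 1.06 and 1.10, and the groups did not overlap for Havcr2 and Entpd1.

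**Figure D2:**
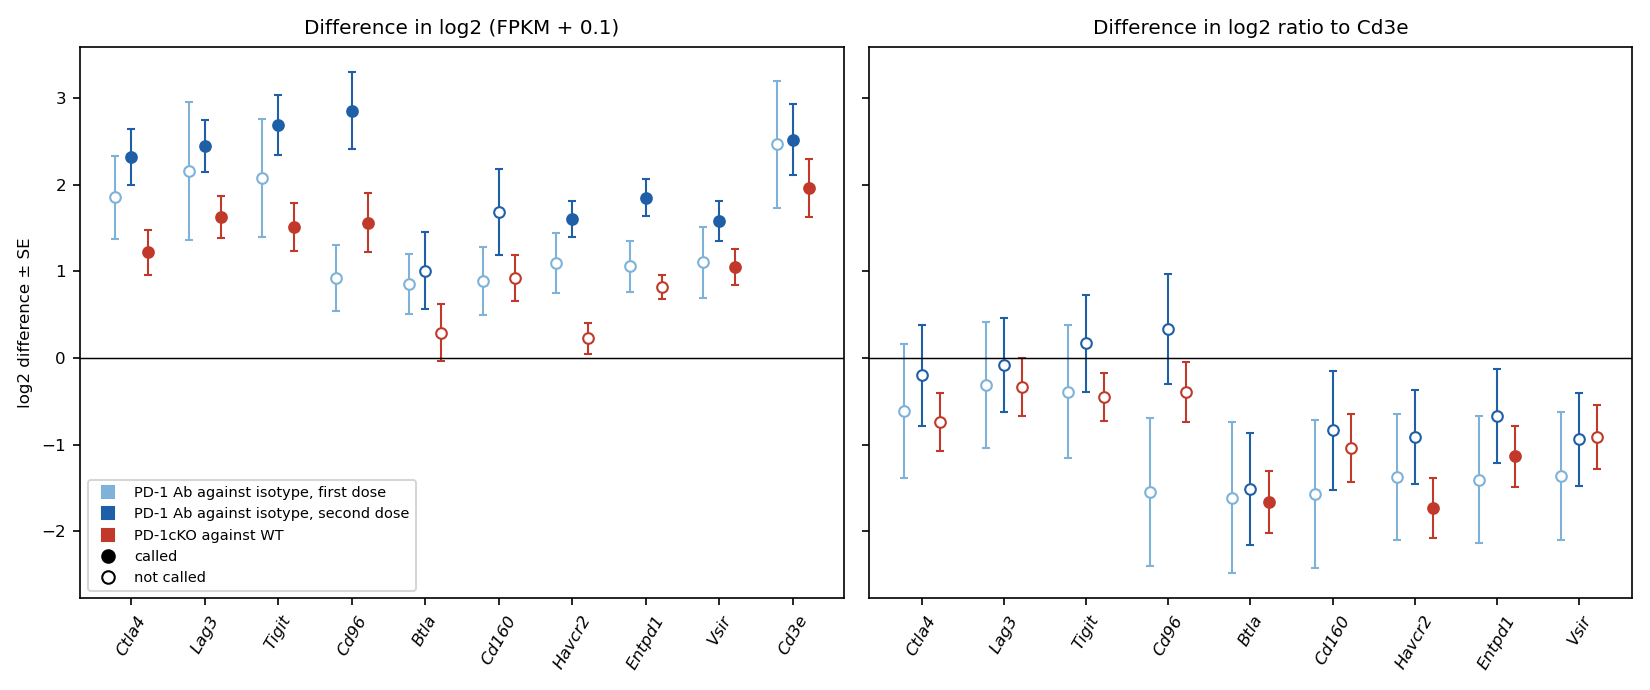
Left, difference in log2(FPKM + 0.1) of each receptor and of Cd3e, and right, difference in the log2 ratio to Cd3e, for PD-1 Ab against isotype control after the first and the second dose and for tumors labelled PD-1cKO against WT, with 1 SE as the bar and filled points for called values. On the left the values after the second dose run from 1.01 for Btla to 2.85 for Cd96, and those of the deletion study from 0.23 for Havcr2 to 1.62 for Lag3.

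Between the doses the PD-1 Ab tumors moved less than the test could call. From the first to the second dose 0 of 9 receptors were called, as against 0.0598% of 15052 genes. The lowest adjusted p belonged to Vsir, at a log2 difference of 1.08 (limma adjusted p 0.0215), Entpd1 at 0.89 (limma adjusted p 0.0235) and Cd96 at 1.45 (limma adjusted p 0.0301). Replicate 5 was the lowest of the treated tumors after the second dose for Ctla4, Lag3, Tigit, Cd96, Entpd1 and Vsir, and for Cd3e at 4.48 FPKM against 12.1 to 19.0 FPKM. Without it, 5 receptors were called (Lag3 1.22, Tigit 1.67, Cd96 1.76, Entpd1 1.08 and Vsir 1.30). Leaving it out changes the fit for every gene, so these calls are not to be read against the 0.0598%. The share of all genes called without it is not given here, so their number says nothing particular to the receptors. In isotype control tumors 0 of 6 tested receptors were called between the doses, and 0% of 14445 genes (0 called, 996 at an unadjusted p under 0.05), and between baseline and isotype control after the second dose 0 of 6, against 0.595% of 14967 genes. The change between the doses in the PD-1 Ab effect was called for 0 of 9 receptors and 0% of 15289 genes, 1182 of which had an unadjusted p under 0.05.

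The deletion study asks the same of tumors in mice with a floxed Pdcd1 gene. In tumors labelled PD-1cKO 5 of 9 receptors were called higher than in WT and none lower, against 4.2% of 15075 genes. The median log2 difference was 1.05, against -0.20 over all genes. Over all genes 633 were called higher and 584 lower, a split that median-of-ratios scaling turned into 922 higher and 335 lower while it moved the all-gene median to -0.04. For none of the 9 did the 10 tumors labelled PD-1cKO all lie above the 10 WT tumors, which was so for 0.643% of the genes tested.

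Lag3 was the receptor that separated the groups most, with lowest, median and highest values of 8.59, 12.6 and 24.1 FPKM under PD-1cKO and 1.52, 4.64 and 8.80 FPKM in WT. It differed by 1.62 on the log2 scale (SE 0.24, limma adjusted p 0.000507). Of the 10 tumors labelled PD-1cKO 9 lay above every WT tumor. Tigit was 1.94, 4.51 and 10.5 FPKM against 0.690, 1.44 and 3.63 FPKM, a difference of 1.51 (SE 0.28, limma adjusted p 0.000929), with 7 of 10 above every WT tumor. Ctla4 was 2.13, 3.09 and 5.98 FPKM against 0.524, 1.59 and 3.24 FPKM, a difference of 1.22 (SE 0.26, limma adjusted p 0.00197), with 4 of 10 above. Cd96 was 0.525, 1.38 and 5.47 FPKM against 0.184, 0.525 and 1.33 FPKM, a difference of 1.56 (SE 0.34, limma adjusted p 0.00247), with 5 of 10 above. These 4 lymphocyte receptors rose, and each had a part of its range in common with WT. With a pseudocount of 1 FPKM Ctla4 (0.83) and Cd96 (0.85) fell short of the 2-fold limit.

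Vsir was 27.4, 46.2 and 106 FPKM in tumors labelled PD-1cKO and 17.8, 23.2 and 31.9 FPKM in WT, a log2 difference of 1.05 (SE 0.21, limma adjusted p 0.00146). Its call sat at the fold limit and was lost without replicate 4, 7 or 8 of the PD-1cKO group (0.92, 0.99 and 0.97). Entpd1 was 20.2, 30.5 and 41.1 FPKM against 12.2, 16.2 and 23.6 FPKM, and its difference of 0.82 passed the p limit (SE 0.14, limma adjusted p 0.000726) but not the fold limit. Havcr2 was 5.31, 7.63 and 13.6 FPKM against 4.95, 6.34 and 10.1 FPKM, and its difference of 0.23 was not called (SE 0.18, limma adjusted p 0.292). Btla differed by 0.29 (SE 0.33, limma adjusted p 0.469), with 0.218, 0.573 and 2.07 FPKM against 0.285, 0.467 and 0.720 FPKM. Cd160 differed by 0.92 (SE 0.27, limma adjusted p 0.0102), short of both limits, and was called after median-of-ratios scaling at 1.04 (limma adjusted p 0.00495).

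Genotype and the runs of sample identifiers were partly confounded. A first run held 7 PD-1cKO tumors but none of WT, another held 9 WT tumors and PD-1cKO replicate 8 alone, and the third held 2 PD-1cKO tumors and 1 WT tumor. With the runs as a covariate 0 of the 9 receptors and 0 of all 15075 genes were called, while all 9 values stayed above 0. Lag3 then differed by 2.0 (limma adjusted p 0.0257), Tigit by 2.26 (limma adjusted p 0.0254), Cd96 by 2.45 (limma adjusted p 0.0257), Ctla4 by 1.59 (limma adjusted p 0.0276) and Vsir by 1.18 (limma adjusted p 0.0301). Within the run with 9 WT tumors the log2 differences were 2.54 for Lag3, 2.68 for Tigit, 3.26 for Cd96, 2.13 for Ctla4 and 1.77 for Vsir, from PD-1cKO replicate 8, the tumor with the highest Ctla4, Lag3, Tigit and Cd96. Within the smallest run they were 1.28, 1.69, 1.37, 0.85 and 0.39, and no test was made there. What the runs stand for was not given in the sources used here.

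Markers of T cells moved with the receptors in both models. All 6 T-cell markers were called higher after the second dose and in tumors labelled PD-1cKO. Their summed level was 27.5 to 102 FPKM under PD-1 Ab after the second dose against 8.23 to 15.1 FPKM under isotype control. In tumors labelled PD-1cKO it was 18.3 to 96.6 FPKM, against 7.30 to 26.9 FPKM in WT. Cultured MC-38 cells alone gave 6.80 to 7.34 FPKM for the T-cell sum and 4.01 to 4.78 FPKM for the regulatory T-cell markers. The part of tumor cells in these sums was not tested. The CD8 T-cell markers Cd8a and Cd8b1 were called in both as well, whereas of 4 regulatory T-cell markers 1 was called in each. Of the 6 macrophage and monocyte markers 4 were called after the second dose and 1 in tumors labelled PD-1cKO, at summed levels of 220 to 509 FPKM against 126 to 168 FPKM and of 244 to 756 FPKM against 163 to 331 FPKM. Of 4 NK cell markers none was called in either. The B-cell marker Cd22 was called higher in both (2.54 and 1.83), as was Cd4. Of the neutrophil markers S100a8 was called lower after the second dose (-2.0) and higher in tumors labelled PD-1cKO (2.47), and Csf3r was called higher in both (1.98 and 1.26). Their summed level was 4.80 to 300.5 FPKM in tumors labelled PD-1cKO and 2.53 to 13.4 FPKM in WT. At the second dose 1 marker each of dendritic cells, endothelial cells, adipocytes and skeletal muscle was called higher, and none of these 4 lists had a call in the deletion study. The part of these cells in the receptor values was not tested beyond the ratio to Cd3e.

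The differences of the 2 models were set against each other gene by gene, subtracting the log2 difference of PD-1cKO and WT from that of PD-1 Ab and isotype control after the second dose. None of the 9 receptors was called, against 0.0914% of 16404 genes. Havcr2 came nearest, at 1.38 higher in the antibody model (SE 0.30, limma adjusted p 0.0266), ahead of Entpd1 at 1.03 (SE 0.25, limma adjusted p 0.0511). The other 7 lay between 0.53 and 1.29 with limma adjusted p from 0.239 to 0.501, so for these the size of the effect was not shown to differ between the models. The median over all genes was 0.23. Without replicate 5 of the PD-1 Ab group Havcr2 (1.51, limma adjusted p 0.0082) and Entpd1 (1.21, limma adjusted p 0.0059) were called. The 0.0914% belongs to the full fit and is no background for these calls. The share of all genes called without that replicate is not given here. The models also differed in day, in mice and in the total of the FPKM values, which ran from 455797 to 569885 in the antibody study after the second dose and from 598599 to 1224462 in the deletion study.

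Relative to Cd3e the receptors gave another picture. Cd3e itself was 12.1, 19.0, 15.9, 15.1 and 4.48 FPKM under PD-1 Ab after the second dose and 0.932, 1.55, 2.77, 3.27 and 2.46 FPKM under isotype control, a log2 difference of 2.52 (SE 0.41, limma adjusted p 0.00219). Under PD-1cKO its lowest, median and highest values were 2.36, 6.24 and 15.9 FPKM, against 0.796, 1.32 and 5.83 FPKM in WT, a difference of 1.96 (SE 0.33, limma adjusted p 0.000726). For each tumor the ratio of the receptor to Cd3e was taken on the log2 scale after adding 0.1 FPKM to both. Cd3e shares 135 exon bases with the antisense gene Gm48719 on the opposite strand. The effect of this overlap on the ratios was not tested. Since Cd3e rose, most genes fell relative to it, and the members' counts are to be read against that background.

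After the second dose 0 of 9 receptors were called relative to Cd3e, where 88.8% of 15062 genes were. Lag3 differed by -0.08 (SE 0.54, limma adjusted p 0.886), Tigit by 0.17 (SE 0.56, limma adjusted p 0.768), Ctla4 by -0.20 (SE 0.58, limma adjusted p 0.738) and Cd96 by 0.33 (SE 0.63, limma adjusted p 0.604). The other values were -0.67 for Entpd1, -0.84 for Cd160, -0.91 for Havcr2, -0.94 for Vsir and -1.51 for Btla, with limma adjusted p from 0.0221 to 0.229. The fit drew these SEs to a common value, so they do not follow each ratio's own spread. For Cd96 that spread was 0.15 under PD-1 Ab and 0.33 under isotype control (SD, n = 5). Exact permutation of the tumors gave unadjusted p of 0.0952 for Cd96 and 0.468 to 0.69 for Ctla4, Tigit and Lag3. It gave 0.0159 to 0.0556 for Vsir, Btla, Entpd1 and Havcr2, and 0.127 for Cd160. The median of the receptors was -0.67, against -2.56 over all genes. After the first dose 0 of 9 were called, where 75.1% of 14556 genes were, a share that became 0 genes where each gene kept its own variance in place of eBayes. All 9 values then lay below 0, from -0.31 for Lag3 to -1.61 for Btla. Those values leaned on the isotype control tumor that stood apart, with Cd3e at 0.0455 FPKM, and without it ran from -0.41 to -1.10.

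In tumors labelled PD-1cKO 3 of 9 receptors were called lower than in WT relative to Cd3e, and 92.1% of 15075 genes were. These were Havcr2 at -1.73 (SE 0.34, limma adjusted p 3.2e-05), Btla at -1.67 (SE 0.36, limma adjusted p 8.7e-05) and Entpd1 at -1.14 (SE 0.36, limma adjusted p 0.0035). Lag3 differed by -0.34 (SE 0.33, limma adjusted p 0.327), Cd96 by -0.40 (SE 0.35, limma adjusted p 0.267), Tigit by -0.45 (SE 0.28, limma adjusted p 0.117) and Ctla4 by -0.74 (SE 0.33, limma adjusted p 0.0334). The median of the receptors was -0.91, against -2.16 over all genes. In this fit too the SEs were drawn to a common value. The direction depended on the denominator: against Cd3d, another CD3 chain, no receptor was called and Lag3, Cd96 and Tigit turned positive, at 0.40, 0.34 and 0.29. Against Ptprc, the common leukocyte antigen, Lag3, Cd96 and Tigit were called higher in the same tumors, at 1.19, 1.13 and 1.08 (limma adjusted p 0.0054 to 0.0063), and Tigit and Cd96 were at the second dose of PD-1 Ab, at 1.27 and 1.44. With the runs of identifiers as a covariate and Cd3e as the denominator, Havcr2 and Entpd1 were called lower at -2.26 and -1.93, and Btla was not (-1.22, limma adjusted p 0.0796). Shares of all genes called over Cd3d, over Ptprc and in the fit with the runs are not given here.

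**Figure D3:**
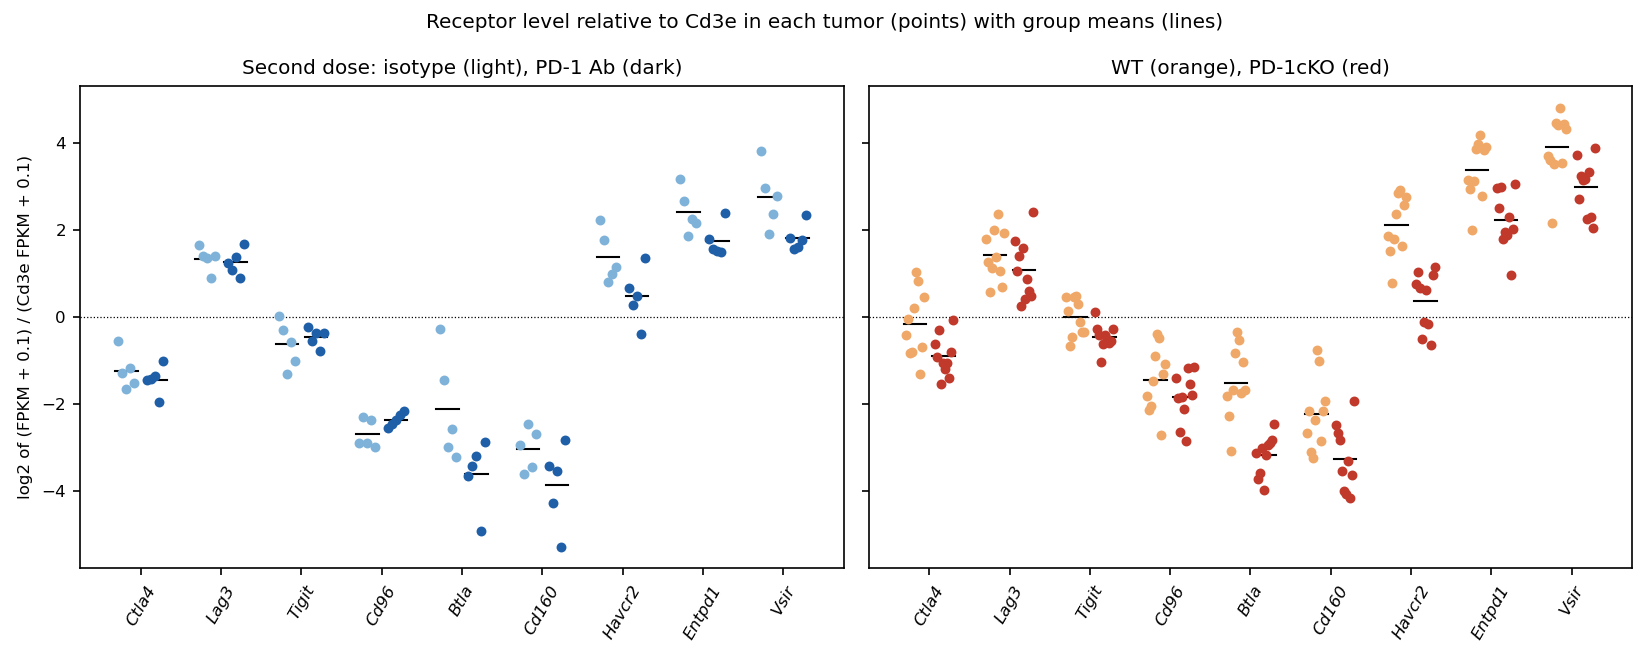
Log2 ratio of each receptor to Cd3e (0.1 FPKM added to both), 1 point per tumor and a line at each group mean, for isotype control and PD-1 Ab at the second dose and for WT and PD-1cKO. At the second dose the ranges of treated and control tumors overlap for each receptor, and the tumors labelled PD-1cKO have a mean ratio for Havcr2 of 0.38 against 2.11 in WT.

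**Figure D4:**
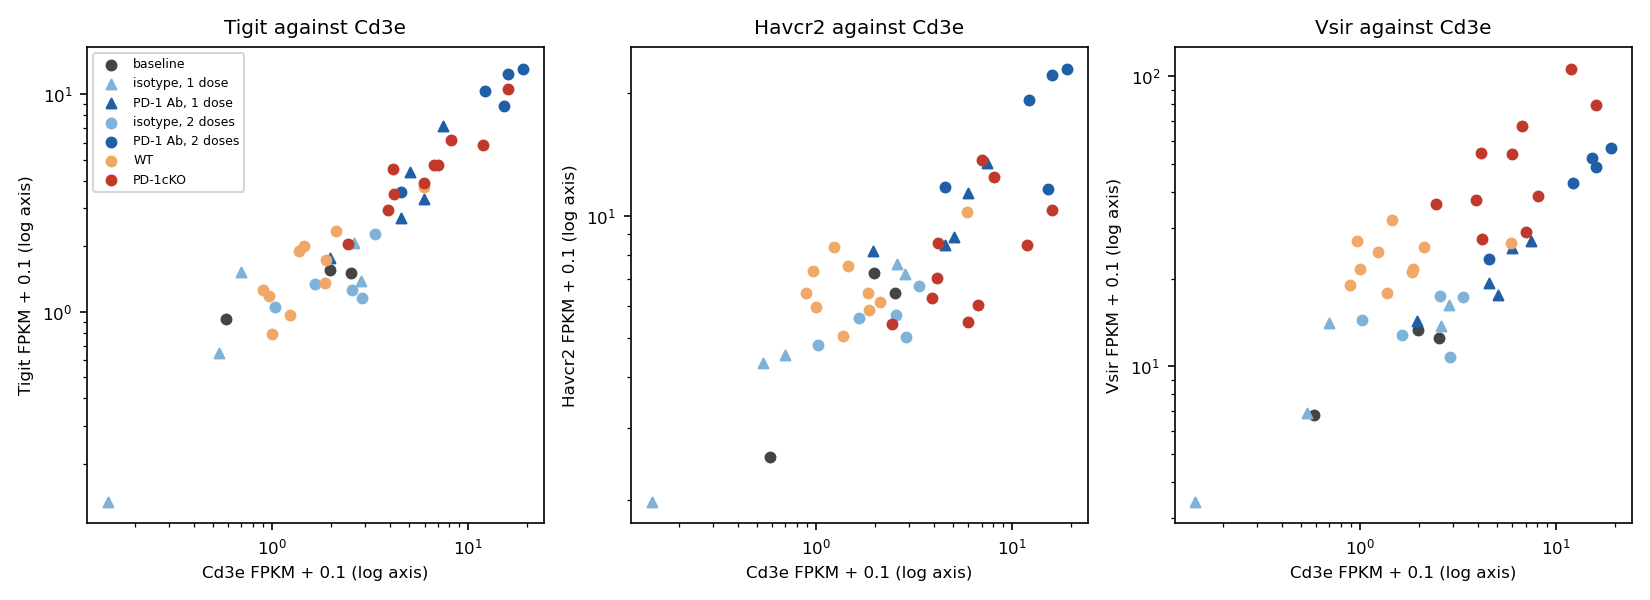
Levels of Tigit, Havcr2 and Vsir against that of Cd3e (FPKM + 0.1, log axes), 1 point per tumor, coloured by group. For Tigit the points run from 0.034 FPKM at a Cd3e of 0.0455 FPKM in an isotype control tumor to 13.0 FPKM at a Cd3e of 19.0 FPKM in a PD-1 Ab tumor.

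The ligands and partners of the receptors moved in part with them. Of 19 such genes 17 were tested, Fgl1 and Igsf11 being too low. After the second dose their median log2 difference was 0.97, against -0.04 over all genes. Of the 17, 8 were called higher and none lower, where 5.03% of all 15062 genes were called higher. Among the 8 were Cd86, a ligand of CTLA-4, at 21.2 against 7.50 FPKM (log2 difference 1.45, limma adjusted p 0.00136), and the MHC class II genes H2-Ab1 (1.73) and H2-Aa (1.83), whose products LAG-3 binds. Cd28 (2.62) and Cd226 (2.67), the costimulatory counterparts of CTLA-4 and TIGIT, were called too, as were Tnfrsf14 (1.71), the adenosine receptor Adora2a (1.81) and Selplg (1.51), a partner of VISTA. Pvr, the main ligand of TIGIT, stood at 21.3 against 28.6 FPKM, a difference of -0.43 that passed the p limit (limma adjusted p 0.00934) and not the fold limit. None of the 17 was called after the first dose, and 0 of all 14556 genes were.

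In tumors labelled PD-1cKO the median log2 difference of the 17 was 0.78, against -0.20 over all genes. Of the 17, 4 were called higher, where 4.2% of all 15075 genes were. The 4 were Cd28 (1.21), Adora2a (1.26), Selplg (1.20) and Lgals3 (1.13), a galectin that binds LAG-3. Hmgb1, a TIM-3 ligand, was called lower, at 95.4 against 181 FPKM (log2 difference -1.10, limma adjusted p 0.00487), where 584 of all 15075 genes were. H2-Ab1 differed by 0.98 and H2-Aa by 0.84, both past the p limit and short of the fold limit, and Cd86 by -0.13 (limma adjusted p 0.61). As no gene was called with the runs of identifiers as a covariate, these calls shared that limit.

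The genes whose level ran most like each receptor's differed by receptor. They were ranked by Pearson's r over the 43 tumors, each value taken as its deviation from its group mean after median-of-ratios scaling, among the 13228 genes whose mean reached 1 FPKM. These tumors share libraries and cell content, so the values are descriptions. Lag3 ran most like the cytotoxic granule gene Prf1 (r 0.92), Sema4a (0.88) and Il2rb (0.85), and Tigit like Cd27 (0.87), Cd3e (0.87) and Il2rb (0.86). Ctla4 ran most like Ikzf3, Sh2d2a and Lat (0.84 to 0.83), and Cd96 and Cd160 both had the chemokine receptor Cxcr6 first, at 0.86 and 0.62.

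The 3 receptors known from myeloid cells had other neighbours. Vsir ran most like Sirpa, an inhibitory receptor of macrophages (0.94), then Cyth4 and Inpp5d, and Entpd1 like the cathepsin gene Ctss (0.92), Slc28a2 and Slamf7. Havcr2 ran most like Gpr65 (0.85), Cd86 and Fgl2. These neighbours do not set all 3 apart from T-cell genes. On the same deviations Havcr2 had r 0.78 with Cd8a and 0.34 with the macrophage and monocyte marker Csf1r. For Entpd1 the values were 0.78 and 0.76, and for Vsir 0.67 and 0.88. Btla, in turn, ran most like Tlr7 (0.84), Ccr2 and Gnpda2. The first neighbour of Cd160 had the lowest r of the 9.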

How the data were processed

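Bulk RNA-seq of 43 MC-38 tumors and 3 cultured cell samples was used. Per the study's methods, the authors made ribosomal-RNA-depleted stranded libraries, sequenced 50-base paired ends, aligned them with the Omicsoft Aligner to the mouse B38 genome in Array Studio, and deposited gene-level FPKM. Whether counting used strand was not given in the sources used here. The methods give 40000000 to 160000000 mapped reads over all samples, with no total per library. The deposited FPKM give no counts, so the precision of single values is unknown, and values near 0 are estimates.

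Groups came from the sample labels. Differences were tested with limma (version 3.58.1, R 4.3.3; lmFit, eBayes with a trend) on log2(FPKM + 0.1), over genes whose mean reached 0.5 FPKM in at least 1 of both groups, with Benjamini-Hochberg adjustment over all tested genes. A gene was called at an adjusted p under 0.01 and at least 2-fold. The same fit was made on the log2 ratio to Cd3e. The shared denominator there gives all genes alike variances, so eBayes draws their errors to a common value. For the second dose the ratios were also tested by exact permutation of the tumors between the groups, with unadjusted p. The code was tested on simulated data. Replicates are separate samples by their labels, and the study describes its tumor profiles as those of individual animals. For the cultured cells nothing says whether they were separate cultures.

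The genes named are the 9 receptors, a list of their ligands and partners, marker genes, and the 3 genes most like each receptor by Pearson's r. The members and lists were chosen with earlier results of these data known. Promoters came from RefSeq (GRCm38.p6), and gene overlaps from the annotation of the same build. Alternatives changed the pseudocount, filter, scaling, trend, groups in the fit, replicate block, runs of identifiers, denominator and replicates.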

Additional observations from a re-analysis of the deposited data

Results flagged for a closer look

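Of 54 sets of 5 or 10 values (9 receptors in 6 groups), 7 held a tumor far above the others by Dixon's criterion. Its rate of about 1 in 20 holds for normal values in independent sets. Here the values were untransformed FPKM of receptors measured in the same tumors, so the rate cannot show an excess. Isotype control replicate 4 after the second dose was high for Ctla4 (1.39 FPKM, the next 0.808) and Tigit (2.18 FPKM, the next 1.25). WT replicate 3 was high for Ctla4 (3.24 FPKM), Tigit (3.63 FPKM) and Cd96 (1.33 FPKM), and had the highest Cd3e of its group, 5.83 FPKM. Replicate 8 of the tumors labelled PD-1cKO was high for Ctla4 (5.98 FPKM) and Tigit (10.5 FPKM), and had the highest Cd3e there, 15.9 FPKM. The part of T-cell content in these tumors was not tested.

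Havcr2 differed between the models by 1.38 on the log2 scale (SE 0.30, limma adjusted p 0.0266). It was listed at an adjusted p under 0.05, a looser limit than the 0.01 used for calls and one applied with the value known. In the antibody study its log2 difference was 1.60, with 5 of 5 treated tumors above every control, and in the deletion study 0.23, with 3 of 10.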

How the results depend on the processing

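The numbers of receptors called after the first dose (0) and after the second dose (7, or 8 with all tumor groups in 1 fit) held under every alternative run. In tumors labelled PD-1cKO 5 became 3 with a pseudocount of 1 FPKM (without Ctla4 and Cd96). With the runs of identifiers as a covariate they became 0, in a fit where no gene was called. Leaving out each replicate gave 0 to 5 called between the doses of PD-1 Ab, 0 to 2 between the models (1 without PD-1cKO replicate 9), and, relative to Cd3e, 0 to 1 after the second dose (1 without PD-1 Ab replicate 5) and 2 to 5 for PD-1cKO against WT (5 without WT replicate 3). Shares over all genes were not set beside these counts, nor beside the receptor counts that follow. Relative to Cd3e after the second dose, 2 were called lower with a pseudocount of 1 FPKM (Btla and Cd160), 1 lower without a trend (Btla), 1 lower over the mean of the 3 CD3 chains (Btla), 2 higher over Ptprc (Tigit 1.27 and Cd96 1.44) and 4 lower over Cd8a (Btla, Havcr2, Entpd1 and Vsir), and in the deletion study 0 over Cd3d. An alternative chosen after seeing the data, lmFit without eBayes, left 0 of 14556 genes called relative to Cd3e after the first dose, in place of 10929, and called 4 receptors in the deletion study. Over all genes, those called after the second dose went from 799 to 450 without a filter, and for PD-1cKO against WT from 1217 to 617 with a pseudocount of 1 FPKM. At the range of mapped reads in the methods, 0.1 FPKM over the annotated exons would stand for about 8.74 to 34.9 fragments of Cd96, 10.6 to 42.3 of Cd160 and 13.6 to 54.3 of Btla if each read pair counted once, and 0.5 times that if both mates did.

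The replicate block was fitted although replicate numbers did not pair the tumors (correlation of same-numbered tumors' deviations -0.27 to 0.19, 2 of 20 correlating best with their own number). It left 7 receptors called after the second dose, 4 in the deletion study and 2 relative to Cd3e there, lowered the genes called after the second dose to 316, and turned Tigit between baseline and isotype control to 0.14.

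Other denominators and scales turned signs. Of the values that turned, Lag3, Tigit and Cd96 over Ptprc in the deletion study were called higher, and no other was called. Over Cd3d, Lag3 was 0.11 and Tigit 0.031 after the first dose, and Lag3 0.40, Tigit 0.29 and Cd96 0.34 in the deletion study. Over the mean of the CD3 chains, Lag3 was 0.17 and Tigit 0.094 after the first dose, Tigit -0.015 after the second and Lag3 0.001 in the deletion study. Over Cd8a, Ctla4 was 0.21, Lag3 0.51 and Tigit 0.43 after the first dose, and Tigit -0.38 and Cd96 -0.21 after the second. Over Ptprc the values after the first dose were 1.07 for Ctla4, 1.37 for Lag3, 1.29 for Tigit, 0.14 for Cd96, 0.071 for Btla, 0.11 for Cd160, 0.31 for Havcr2, 0.28 for Entpd1 and 0.32 for Vsir. After the second dose they were 0.90 for Ctla4, 1.02 for Lag3, 0.27 for Cd160, 0.19 for Havcr2, 0.43 for Entpd1 and 0.16 for Vsir. In the deletion study they were 0.79 for Ctla4, 1.19 for Lag3, 1.08 for Tigit, 1.13 for Cd96, 0.49 for Cd160, 0.39 for Entpd1 and 0.62 for Vsir. With a pseudocount of 1 FPKM, Lag3 relative to Cd3e was 0.18 after the first dose and 0.16 after the second, Cd96 -0.69 after the second, Cd160 0.009 between the doses of PD-1 Ab and Ctla4 -0.051 between the doses of isotype control. Between the doses of isotype control, median-of-ratios scaling gave -0.19 for Ctla4, -0.17 for Entpd1 and -0.009 for Havcr2, and upper-quartile scaling -0.18, -0.17 and -0.001. The cause was not tested beyond the change of denominator or scale itself.

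Leaving out single replicates also turned signs. Between baseline and isotype control the ranges were -0.22 to 0.73 for Ctla4, -0.21 to 0.17 for Tigit, -0.45 to 0.30 for Havcr2 and -0.60 to 0.012 for Entpd1. Between the doses of isotype control they were -0.42 to 0.25 for Ctla4, -0.14 to 1.06 for Lag3, -0.05 to 0.44 for Havcr2 and -0.15 to 0.26 for Entpd1, and between the doses of PD-1 Ab -0.22 to 0.24 for Cd160. The change between the doses in the PD-1 Ab effect ran from -0.082 to 1.1 for Lag3 and from -0.058 to 0.40 for Btla. Relative to Cd3e Lag3 ran from -0.51 to 0.11 after the first dose and from -0.19 to 0.01 after the second, and Tigit from -0.002 to 0.34 after the second.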
